A study of Mus musculus with 16 samples.

Results

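Interferon-stimulated genes and the guanylate-binding GTPases that interferon-γ switches on were followed in mouse Th17 cells, the class of helper T cells that makes IL-17. The set held 41 genes, chosen by name as known interferon-induced genes, with earlier results of these data known. All 41 were among the 15571 genes of the table and among the 14985 genes tested. They were described in 7 role lists, namely regulators, nucleic acid sensors, antiviral effectors, ubiquitin and ADP-ribose enzymes, guanylate-binding proteins, immunity-related GTPases and class I antigen processing.

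Naive CD4+ T cells from spleen and lymph nodes were cultured for 3 days under Th17 conditions, in 4 groups with 4 libraries each. KO acetate cells came from PDHfl/fl CD4 Cre+ mice and were grown with 10 mM sodium acetate, and KO untreated cells came from the same genotype without acetate. WT acetate cells came from PDHfl/fl mice without Cre and were grown with 10 mM sodium acetate, and WT untreated cells came from that genotype without acetate. PDH, the pyruvate dehydrogenase complex, turns pyruvate into acetyl-CoA in mitochondria, and acetate can be made into acetyl-CoA by another route. Every culture received 5 µg/mL of plate-bound anti-CD3 and 1 µg/mL of anti-CD28, the cytokines IL-6 (30 ng/mL) and TGFβ (2 ng/mL), and an antibody against IFNγ (5 µg/mL). The antibody against interferon-γ was thus present in all 4 groups. Both genotypes carried the floxed allele, the Cre was driven by CD4 sequences, and no group controlled for Cre alone or for sodium. The titles write PHD where the protocols write PDH, and none names the gene or exons deleted, so a count over a whole gene does not check the genotype. The labels give neither sex nor age, nor say whether the 4 libraries of a group are different mice or repeats of a culture. The p-values therefore rest on the spread between these libraries, which may be technical.

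Type I interferons signal through IFNAR1 and IFNAR2 and the kinases JAK1 and TYK2 to a complex that holds STAT2 and IRF9 and binds the interferon-stimulated response element (ISRE). Interferon-γ signals through IFNGR1, IFNGR2, JAK1 and JAK2 and acts on genes with gamma-activated sites (GAS), IRF1 among them. Products of the induced genes sense foreign nucleic acids, block viral replication, attack the vacuoles of intracellular pathogens and raise antigen presentation on MHC class I. Interferon-γ is the product of Th1 cells and restrains Th17 differentiation, which is why it is commonly blocked in Th17 cultures.

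Promoter windows are shown because these elements are the route from the signal to the genes. RefSeq windows of 300 bases (250 before to 50 after the start, build GRCm38.p6) were found for 30 of the 41 genes. An ISRE-like motif, which is TTTC, any 2 bases and TTTC again, or on the other strand GAAA, any 2 bases and GAAA again, was present in 16 of the 30 (53.3%), against 1079 of 27025 genes with a window (3.99%). A GAS-like motif, TTCNNNGAA, which reads the same on both strands, was present in 12 of the 30 (40%), against 2582 genes (9.55%). Both strands were searched, and a gene with several windows counted if any held the motif. All 4 guanylate-binding protein genes with a window held the ISRE-like motif, as did 3 of 4 immunity-related GTPase genes and 5 of 10 antiviral effector genes, but 1 of 4 regulators. The windows printed here belong to the genes that had the smallest p for any difference among the 4 groups, of those with a window, in 4 role lists, and to Isg15 and Ifit1, which were added after their values were seen. Capitals mark every match to either motif, and Irf1 and Mov10 have a second window that is not printed. The Irf1 window (chr11:53769764-53770063, plus strand) held 1 GAS-like match and the Mov10 window (chr3:104818514-104818813, minus strand) no match to either. The Gbp5 window (chr3:142496684-142496983, plus strand) held 1 ISRE-like and 2 GAS-like matches. The windows of Irgm1 (chr11:48871371-48871670, minus strand), Isg15 (chr4:156200769-156201068, minus strand) and Ifit1 (chr19:34640639-34640938, plus strand) held 2, 3 and 2 ISRE-like matches, which overlap one another in Irgm1 and Isg15. A match describes the letters of the window and does not show that a factor binds there. The set was chosen as known interferon-induced genes, so its shares of motifs describe that choice and not these cultures.
Irf1: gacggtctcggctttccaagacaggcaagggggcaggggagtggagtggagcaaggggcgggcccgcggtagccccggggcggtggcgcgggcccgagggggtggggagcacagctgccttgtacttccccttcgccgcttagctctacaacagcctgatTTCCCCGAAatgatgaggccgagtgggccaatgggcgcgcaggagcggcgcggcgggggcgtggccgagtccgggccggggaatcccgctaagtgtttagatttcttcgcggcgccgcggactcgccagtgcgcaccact
Gbp5: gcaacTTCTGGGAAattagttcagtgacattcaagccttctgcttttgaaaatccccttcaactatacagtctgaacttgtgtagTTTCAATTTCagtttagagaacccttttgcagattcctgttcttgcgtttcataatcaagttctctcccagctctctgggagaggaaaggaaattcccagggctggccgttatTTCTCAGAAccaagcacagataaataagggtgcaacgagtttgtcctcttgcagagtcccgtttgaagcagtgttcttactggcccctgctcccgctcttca
Irgm1: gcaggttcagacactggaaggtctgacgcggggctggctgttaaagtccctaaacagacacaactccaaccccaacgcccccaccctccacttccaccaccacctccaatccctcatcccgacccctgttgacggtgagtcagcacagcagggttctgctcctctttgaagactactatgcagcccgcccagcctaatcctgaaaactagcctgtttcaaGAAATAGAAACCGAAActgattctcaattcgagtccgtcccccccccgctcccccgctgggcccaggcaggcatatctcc
Isg15: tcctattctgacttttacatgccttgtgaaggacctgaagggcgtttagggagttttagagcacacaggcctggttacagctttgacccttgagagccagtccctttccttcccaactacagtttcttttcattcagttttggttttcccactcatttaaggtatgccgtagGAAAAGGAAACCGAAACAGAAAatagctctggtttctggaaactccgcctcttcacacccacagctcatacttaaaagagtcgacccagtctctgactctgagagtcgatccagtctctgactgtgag
Ifit1: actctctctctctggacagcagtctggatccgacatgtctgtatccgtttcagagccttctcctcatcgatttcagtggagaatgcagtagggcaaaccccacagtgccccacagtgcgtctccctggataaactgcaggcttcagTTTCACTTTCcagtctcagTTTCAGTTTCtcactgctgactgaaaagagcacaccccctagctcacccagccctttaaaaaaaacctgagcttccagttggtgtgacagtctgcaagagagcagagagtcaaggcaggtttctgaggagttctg
Mov10: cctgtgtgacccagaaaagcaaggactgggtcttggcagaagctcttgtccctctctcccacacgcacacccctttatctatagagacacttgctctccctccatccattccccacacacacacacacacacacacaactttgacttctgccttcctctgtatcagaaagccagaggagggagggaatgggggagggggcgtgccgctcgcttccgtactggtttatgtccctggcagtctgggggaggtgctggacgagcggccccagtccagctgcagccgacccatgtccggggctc

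The libraries held 24.57 to 33.72 M estimated counts, and levels are given as CPM, the count as a share of the library size after TMM scaling. One gene without a name took over 3% of the counts of 4 libraries (KO acetate 2, KO untreated 1, KO untreated 2 and WT untreated 1), called the high-share libraries, without which 3 KO acetate, 2 KO untreated, 4 WT acetate and 3 WT untreated libraries remain. The 7 T cell markers summed to 2321 to 2451 CPM in KO acetate, 2249 to 2422 CPM in KO untreated libraries, 2480 to 2651 CPM in WT acetate and 2696 to 2770 CPM in WT untreated libraries, so that the KO libraries lay below the WT libraries. Of these 7 genes 5 fell in KO untreated against WT untreated cells, 3 in KO acetate against WT acetate cells and 2 with acetate in each genotype, and none rose. Over all genes tested 18.6% fell in the first of these comparisons and 0.514% in the second. With acetate 21.6% of all genes fell in KO cells and 7.55% in WT cells. The 7 Th17 markers summed to 1641 to 2876 CPM in KO acetate, 704 to 1000 CPM in KO untreated libraries, 1292 to 2118 CPM in WT acetate and 728 to 1140 CPM in WT untreated libraries. Of these 7 markers 5 rose with acetate in KO cells and 2 in WT cells, where 22.1% and 7.89% of all genes did. Markers of B cells summed to 1.13 to 5.64 CPM, and the 3 of 6 macrophage and monocyte markers in the table to 3.16 to 5.36 CPM. Of 6 dendritic cell markers only Flt3 and Zbtb46 were in the table, with sums of 1.63 to 4.45 CPM in KO acetate, 1.84 to 5.80 CPM in KO untreated libraries, 1.36 to 4.56 CPM in WT acetate and 1.10 to 1.58 CPM in WT untreated libraries. Both rose in KO untreated against WT untreated cells (adjusted p of 0.0421 for Flt3 and 0.0411 for Zbtb46), where 18% of all genes did. CD8 markers (5.13 to 18.2 CPM) were at their lowest in KO untreated libraries. The part of these traces in the results was not tested, and in bulk RNA fewer cells of a type and less RNA per cell cannot be told apart. The guanylate-binding proteins, the immunity-related GTPases, and Ifit1 with Ifit3 are families of similar genes, between which the authors' estimates may have divided shared reads, so single members are uncertain to that extent.

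The comparison of KO untreated with WT untreated cells asked how loss of PDH changed the set. The ubiquitin-like Isg15 (3.00 on the log2 scale), the RNA-binding Ifit1 (2.84), the transcription factor Irf7 (2.37) and the GTPase Gbp6 (1.55) rose. Parp9 (−0.56), a member of the ADP-ribosyltransferase family, the GTPase Irgm1 (−0.54) and the class I activator Nlrc5 (−0.28) fell. Of the 41 genes 18 rose and 5 fell (edgeR quasi-likelihood test, Benjamini-Hochberg adjusted p under 0.05), or 56.1%, where 36.6% of the 14985 genes tested passed (18% upward and 18.6% downward). Of the 41 genes 43.9% rose and 12.2% fell. All 4 KO untreated libraries lay above all 4 WT untreated libraries for 15 of the 41 members, where 17.9% of the genes tested did so. They lay below for 6 of the 41, where 18.2% of the genes tested did so. The median log2 fold change was 0.26 over the set and 0.01 over all genes. Without the high-share libraries 14 rose and 4 fell. In this comparison 5 of the 7 T cell markers also fell.

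KO acetate cells were set against KO untreated cells to ask how acetate acted where PDH was lost. This comparison shares the KO untreated libraries with the comparison above, so the 2 are not independent. The GTPases Gbp2 (−1.87 on the log2 scale) and Gbp6 (−1.87), the helicase Mov10 (−1.29) and the factors Irf7 (−2.05) and Irf1 (−0.76) fell. The ubiquitin ligase Rnf213 (0.55), Irgm1 (0.49) and Nlrc5 (0.40) rose. In all 27 of 41 genes fell and 4 rose, or 75.6%, where 43.7% of the genes tested passed (21.6% downward and 22.1% upward). All 4 KO acetate libraries lay below all 4 KO untreated libraries for 22 of the 41 members, where 18.7% of the genes tested did so. They lay above for 4 of the 41, where 19% of the genes tested did so. The median log2 fold change was −0.54 over the set and −0.01 over all genes. Without the high-share libraries 25 fell and 3 rose. Library totals alone as the scale put the median of all genes at 0.095 rather than −0.009, and 25 members then fell and 5 rose.

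In WT cells the clearest changes with acetate were falls of Mov10 (−1.11 on the log2 scale), Gbp5 (−0.91) and Dtx3l (−0.53), a ubiquitin ligase. Of the 41 genes 11 fell and 5 rose in WT acetate against WT untreated cells, or 39%, where 15.4% of the genes tested passed (7.55% downward and 7.89% upward). With 1 library left out 10 to 14 fell and 2 to 4 rose, the 2 being without WT untreated 1, and 3 rose without WT acetate 1, 2 or 4 or WT untreated 2 or 3. Without overlap of libraries 11 of the 41 lay below, where 10.7% of the genes tested did, and 4 above, where 10.6% did. Of the 27 genes that fell with acetate in KO cells 10 (37%) fell with it in WT cells, and these were 90.9% of the 11 that fell in WT cells. Over all genes tested 861 fell in both genotypes, which is 26.6% of the 3236 that fell in KO cells and 76.1% of the 1132 that fell in WT cells. The 10 members that fell in both genotypes were Adar, Samhd1, Mov10, Ifi35, Shisa5, Parp14, Dtx3l, Gbp2, Gbp3 and Gbp5. Bst2, Rnf213 and Nlrc5 rose in both genotypes. No library is shared by the 2 acetate comparisons. Without the high-share libraries 9 fell and 3 rose in WT cells.

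With acetate present, no member differed between KO and WT cells past the threshold. The log2 fold changes of KO acetate against WT acetate cells lay between −0.67 and 0.73, with a lowest adjusted p of 0.0512 for Shisa5 in edgeR, and 1% of the genes tested passed (0.514% downward and 0.487% upward). All 4 KO acetate libraries lay below all 4 WT acetate libraries for 6 of the 41 members, where 4.86% of the genes tested did so. They lay above for none, where 4.5% of the genes tested did so. At an unadjusted p under 0.05 there were 11 members, 10 lower and 1 higher. DESeq2 called 3 members lower (Shisa5, Parp9 and Igtp). Shisa5, Mov10 and Parp9 passed in edgeR without KO acetate 2 (adjusted p of 0.0133, 0.0469 and 0.0492), and Shisa5 without KO acetate 4 (0.0477). Both genotype and acetate differ between KO acetate and WT untreated cells, so this comparison alone does not separate their effects. In KO acetate against WT untreated cells 15 members were lower and 3 higher (Isg15, Ifit1 and Rnf213). Of these calls Rnf213 (adjusted p = 0.0915) and Ifi47 (0.177) were lost without the high-share libraries, and Ifi47 without KO acetate 1, 2 or 3 or WT untreated 1 (0.0599 to 0.1). This comparison shares its libraries with those above. The 18 genes are 43.9% of the set, where 26.4% of the genes tested passed (13.5% downward and 12.9% upward). The libraries of 16 members lay below and of 4 above without overlap, where 14.2% of the genes tested did so each way.

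The mean centred log2 level of the 41 genes, a description with no test, lay between −0.273 and −0.167 in KO acetate, between 0.308 and 0.519 in KO untreated, between −0.22 and −0.101 in WT acetate and between −0.11 and 0.027 in WT untreated libraries. The KO untreated libraries stood above all others, and those of KO acetate overlapped those of WT acetate. The heat map of levels by library shows that this mean hides genes of opposite behaviour.

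**Figure D1:**
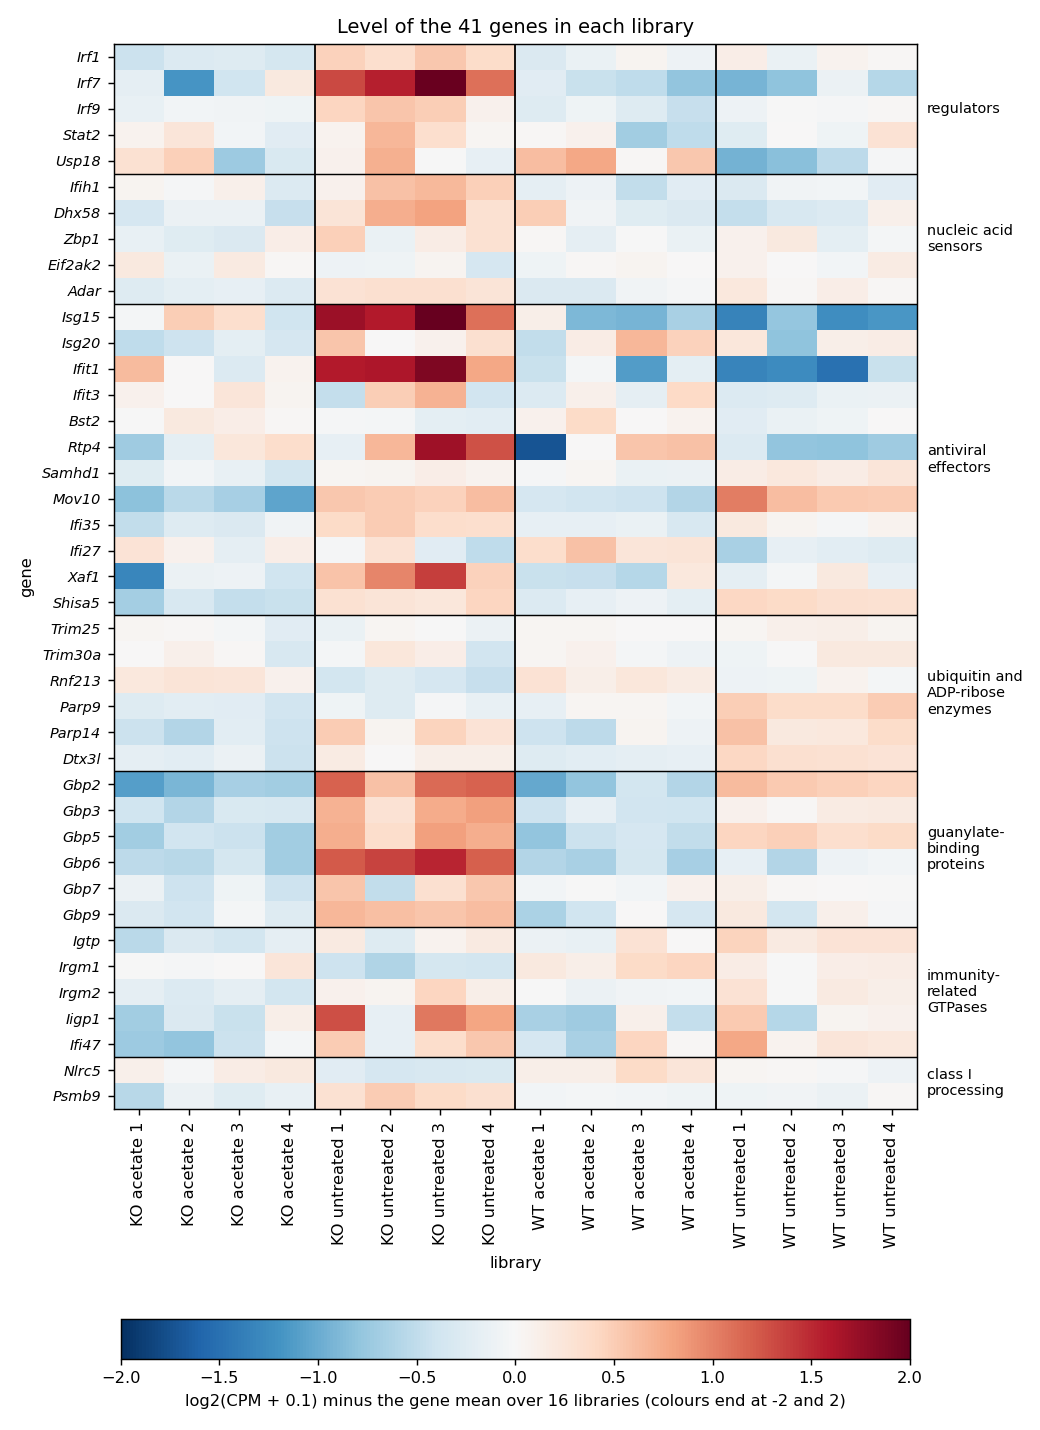
Level of the 41 genes (rows, by role list) in the 16 libraries (columns, 4 per group), as log2(CPM + 0.1) minus the mean of the gene over all libraries, with the colour scale ending at −2 and 2. Isg15, Ifit1, Irf7, Gbp6 and Psmb9 are highest in the 4 KO untreated libraries, while Irgm1 and Nlrc5 are lowest there.

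Among the regulators, the transcription factor gene Irf1 had 24.4, 27.1, 27.6 and 25.7 CPM in KO acetate, 45.2, 41.7, 47.6 and 42.4 CPM in KO untreated, 26.8, 29.9, 34.2 and 30.5 CPM in WT acetate and 36, 30.0, 34.6 and 33.4 CPM in WT untreated libraries. All 4 KO untreated libraries were above every other library, and those of WT acetate and WT untreated overlapped. Irf1 rose in KO untreated against WT untreated cells (log2 fold change 0.40, SE 0.077, adjusted p = 0.000535) and fell in KO acetate against KO untreated cells (log2 fold change −0.76, SE 0.078, adjusted p = 4.14e-07). Irf7, which amplifies the type I interferon response, had 0.472, 0.187, 0.390 and 0.639 CPM in KO acetate, 1.52, 1.81, 2.45 and 1.29 CPM in KO untreated, 0.455, 0.375, 0.354 and 0.277 CPM in WT acetate and 0.241, 0.273, 0.500 and 0.338 CPM in WT untreated libraries. Only the KO untreated libraries exceeded 1 CPM, and the other 3 groups overlapped at levels that rest on 5 to 18 counts per library. Irf7 rose in KO untreated against WT untreated cells (log2 fold change 2.37, SE 0.35, adjusted p = 4.79e-05) and fell with acetate in KO cells (log2 fold change −2.05, SE 0.345, adjusted p = 9.39e-05).

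Stat2, a subunit of the factor that binds the ISRE, had 39.4, 44.1, 35.9 and 32.1 CPM in KO acetate, 39.2, 59.1, 47.2 and 38.5 CPM in KO untreated, 38.1, 39.8, 23.2 and 26.4 CPM in WT acetate and 31.6, 37.6, 35.3 and 46 CPM in WT untreated libraries. The groups overlapped, the spread within each was wide, and Stat2 was called in none of the 6 comparisons. Its partner Irf9 rose in KO untreated against WT untreated cells (log2 fold change 0.43, SE 0.092, adjusted p = 0.00146) and fell with acetate in KO cells (log2 fold change −0.49, SE 0.093, adjusted p = 0.00027). Without the high-share libraries the first of these calls was lost (log2 fold change 0.30, adjusted p = 0.0874). Usp18, which removes ISG15 from proteins and damps the type I receptor, averaged 1.84 ± 0.700 CPM in KO acetate, 2.10 ± 0.643 CPM in KO untreated cells, 2.64 ± 0.558 CPM in WT acetate and 1.22 ± 0.406 CPM in WT untreated cells (SD, n = 4 each). It rose in KO untreated against WT untreated cells with an adjusted p of 0.0468 in edgeR, a call lost without KO untreated 1, 2 or 3 or WT untreated 1, 2 or 3 (0.0551 to 0.183) and with library totals alone or without the high-share libraries (0.0673 to 0.494). It was the 1 regulator that rose with acetate in WT cells (log2 fold change 1.11, SE 0.296, adjusted p = 0.0159), a call lost without WT acetate 2, WT untreated 1 or WT untreated 2 (0.0501 to 0.0546). Of the 5 regulators 4 rose and none fell in KO untreated against WT untreated cells, and 3 fell and none rose with acetate in KO cells. For this list and the role lists below, 18% of all genes tested rose and 18.6% fell in KO untreated against WT untreated cells. With acetate 21.6% of all genes fell and 22.1% rose in KO cells, and 7.55% fell and 7.89% rose in WT cells.

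Among the nucleic acid sensors, Adar, which edits adenosine to inosine in double-stranded RNA, had 63.9, 66.7, 68.1 and 63.3 CPM in KO acetate, 93.3, 95.7, 95.2 and 91.5 CPM in KO untreated, 63, 62.8, 72.7 and 75.4 CPM in WT acetate and 88.5, 77.7, 84.4 and 78 CPM in WT untreated libraries. Untreated libraries of each genotype were above the acetate libraries of that genotype without overlap. Adar fell with acetate in KO cells (log2 fold change −0.52, SE 0.065, adjusted p = 4e-06) and in WT cells (log2 fold change −0.26, SE 0.065, adjusted p = 0.0098). Its rise in KO untreated against WT untreated cells was small (log2 fold change 0.19, SE 0.065, adjusted p = 0.0257) and did not pass without KO untreated 2 or 3 or WT untreated 2 or 4 (adjusted p of 0.0588 to 0.09), without the high-share libraries or with library totals alone as the scale (0.093 to 0.156). The call with acetate in WT cells was also lost under these last 2 settings (0.052 to 0.059). Ifih1, a cytosolic sensor of long double-stranded RNA, had 29.3, 27.6, 30.3 and 23.3 CPM in KO acetate, 29.9, 42.4, 44.4 and 39.3 CPM in KO untreated, 24.9, 26.2, 20.1 and 24 CPM in WT acetate and 22.9, 26.7, 27.1 and 24.1 CPM in WT untreated libraries. KO untreated 1 stood below the other KO untreated libraries and within the range of KO acetate. Ifih1 rose in KO untreated against WT untreated cells (log2 fold change 0.63, SE 0.113, adjusted p = 0.000317) and fell with acetate in KO cells (log2 fold change −0.50, SE 0.113, adjusted p = 0.00154).

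Dhx58, a helicase relative of the RIG-I sensor, averaged 1.90 ± 0.230 CPM in KO acetate, 3.38 ± 0.679 CPM in KO untreated cells, 2.30 ± 0.648 CPM in WT acetate and 1.95 ± 0.366 CPM in WT untreated cells. It rose in KO untreated against WT untreated cells (adjusted p = 0.00644, and 0.0634 without the high-share libraries) and fell with acetate in KO cells (adjusted p = 0.00375). Zbp1, a sensor of left-handed nucleic acids that can start necroptosis, fell with acetate in KO cells (log2 fold change −0.34, SE 0.124, adjusted p = 0.0303), a call lost without KO acetate 1, 2 or 3 or KO untreated 1 or 4 (0.0603 to 0.12), without the high-share libraries (0.0859) and with library totals alone (0.132). Eif2ak2, the kinase that halts translation on binding double-stranded RNA, was called in no comparison. Its means were 28.7 ± 3.03 CPM in KO acetate, 25.3 ± 2.75 CPM in KO untreated cells, 27.4 ± 1.08 CPM in WT acetate and 28.4 ± 1.88 CPM in WT untreated cells. Of the 5 sensors 3 rose and none fell in KO untreated against WT untreated cells. With acetate 4 fell and none rose in KO cells, and 1 fell and none rose in WT cells.

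Isg15 and Ifit1, named after their values were seen, had the largest changes called among the antiviral effectors in KO untreated against WT untreated cells and with acetate in KO cells. Isg15, a ubiquitin-like protein joined to other proteins, had 1.08, 1.61, 1.42 and 0.816 CPM in KO acetate, 3.85, 3.53, 5.00 and 2.50 CPM in KO untreated, 1.20, 0.548, 0.531 and 0.673 CPM in WT acetate and 0.378, 0.606, 0.411 and 0.439 CPM in WT untreated libraries. Every KO untreated library was above every other library, and the WT untreated values rest on 11 to 20 counts each. Isg15 rose in KO untreated against WT untreated cells (log2 fold change 3.00, SE 0.313, adjusted p = 1.24e-06) and fell with acetate in KO cells (log2 fold change −1.59, SE 0.288, adjusted p = 0.000186). It was higher in KO acetate than in WT untreated cells (log2 fold change 1.41, SE 0.317, adjusted p = 0.00331), with no overlap, where both genotype and acetate differ. Between KO acetate and WT acetate cells Isg15 was not called (log2 fold change 0.735, SE 0.304, adjusted p = 0.201), and the libraries overlapped. Ifit1, which binds viral RNA, had 1.62, 1.01, 0.815 and 1.06 CPM in KO acetate, 3.23, 3.30, 3.96 and 1.80 CPM in KO untreated, 0.715, 0.981, 0.413 and 0.871 CPM in WT acetate and 0.344, 0.364, 0.294 and 0.710 CPM in WT untreated libraries. KO untreated was again the highest group, KO untreated 4 being nearest to the rest. Ifit1 rose in KO untreated against WT untreated cells (log2 fold change 2.84, SE 0.345, adjusted p = 6.46e-06), fell with acetate in KO cells (log2 fold change −1.44, SE 0.317, adjusted p = 0.00114) and was higher in KO acetate than in WT untreated cells (log2 fold change 1.40, SE 0.35, adjusted p = 0.00673). Between KO acetate and WT acetate cells Ifit1 was not called (log2 fold change 0.60, SE 0.333, adjusted p = 0.349), and the libraries overlapped.

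A second pattern among the effectors was a fall with acetate in both genotypes. Mov10, an RNA helicase that restricts retroviruses and retrotransposons, had 19.4, 23.6, 21.4 and 16.5 CPM in KO acetate, 49.7, 48.7, 46.9 and 52.4 CPM in KO untreated, 27, 26.3, 25.5 and 22.7 CPM in WT acetate and 69.4, 52.7, 49.1 and 48.6 CPM in WT untreated libraries. The acetate libraries of both genotypes were below all untreated libraries, and WT untreated 1 was the highest. Mov10 fell with acetate in KO cells (log2 fold change −1.29, SE 0.113, adjusted p = 8.15e-08) and in WT cells (log2 fold change −1.11, SE 0.111, adjusted p = 4.87e-06). Shisa5, an endoplasmic reticulum protein linked to apoptosis, had 259, 332, 299 and 305 CPM in KO acetate, 511, 495, 486 and 559 CPM in KO untreated, 345, 371, 385 and 362 CPM in WT acetate and 552, 543, 518 and 514 CPM in WT untreated libraries. Here too both acetate groups lay below both untreated groups, with KO acetate the lowest. Shisa5 fell with acetate in KO cells (log2 fold change −0.78, SE 0.071, adjusted p = 9.12e-08) and in WT cells (log2 fold change −0.54, SE 0.07, adjusted p = 5.92e-05).

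The other 8 effectors had means of 0.113 to 279 CPM in the 4 groups. Samhd1, which depletes deoxynucleotides, fell with acetate in KO cells (log2 fold change −0.27, adjusted p = 0.00178) and in WT cells (−0.24, adjusted p = 0.0137), and both calls were lost with library totals alone as the scale (adjusted p of 0.0726 and 0.1). Ifi35 fell with acetate in KO cells (log2 fold change −0.67, adjusted p = 2.93e-06) and in WT cells (−0.27, adjusted p = 0.0323), the WT call being lost without WT acetate 1, 2 or 4 or WT untreated 1, 2 or 4 (0.0552 to 0.117), without the high-share libraries or with library totals alone (0.112 to 0.114). In KO untreated against WT untreated cells Ifi35 (log2 fold change 0.32), Xaf1, a partner of the apoptosis inhibitor XIAP (0.99), and Rtp4 (2.31) rose. Xaf1 and Rtp4 lost the call without KO untreated 3 (adjusted p of 0.0643 and 0.0514), and Rtp4 rests on 0 to 27 counts per library. Ifi35 and Xaf1 lost it without the high-share libraries (0.0519 and 0.0683). Xaf1 also fell with acetate in KO cells (log2 fold change −1.40, SE 0.302, adjusted p = 0.00094). Ifi27, a mitochondrial protein gene, rose with acetate in WT cells (log2 fold change 0.68, SE 0.157, adjusted p = 0.00668). Bst2, which tethers budding virus to the cell, rose with acetate in KO cells (log2 fold change 0.20, SE 0.081, adjusted p = 0.047), a call lost without KO acetate 2 or 3 or KO untreated 2, 3 or 4 (0.0521 to 0.142), without the high-share libraries or with no filter on low counts (0.0517 to 0.0639). It rose also in WT cells (log2 fold change 0.25, SE 0.08, adjusted p = 0.0441), a call lost without WT acetate 1, 2 or 4 or WT untreated 1, 2 or 3 (0.0546 to 0.18), without the high-share libraries or with only these 2 groups fitted (0.0646 to 0.142). Isg20, an exonuclease, and Ifit3 were called in no comparison. They rest on 21 to 66 and 15 to 40 counts per library, so changes may have been missed. Of the 12 effectors 5 rose (41.7%) and none fell in KO untreated against WT untreated cells, where 18% and 18.6% of all genes did. With acetate 7 fell and 1 rose in KO cells, and 4 fell and 2 rose in WT cells.

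**Figure D2:**
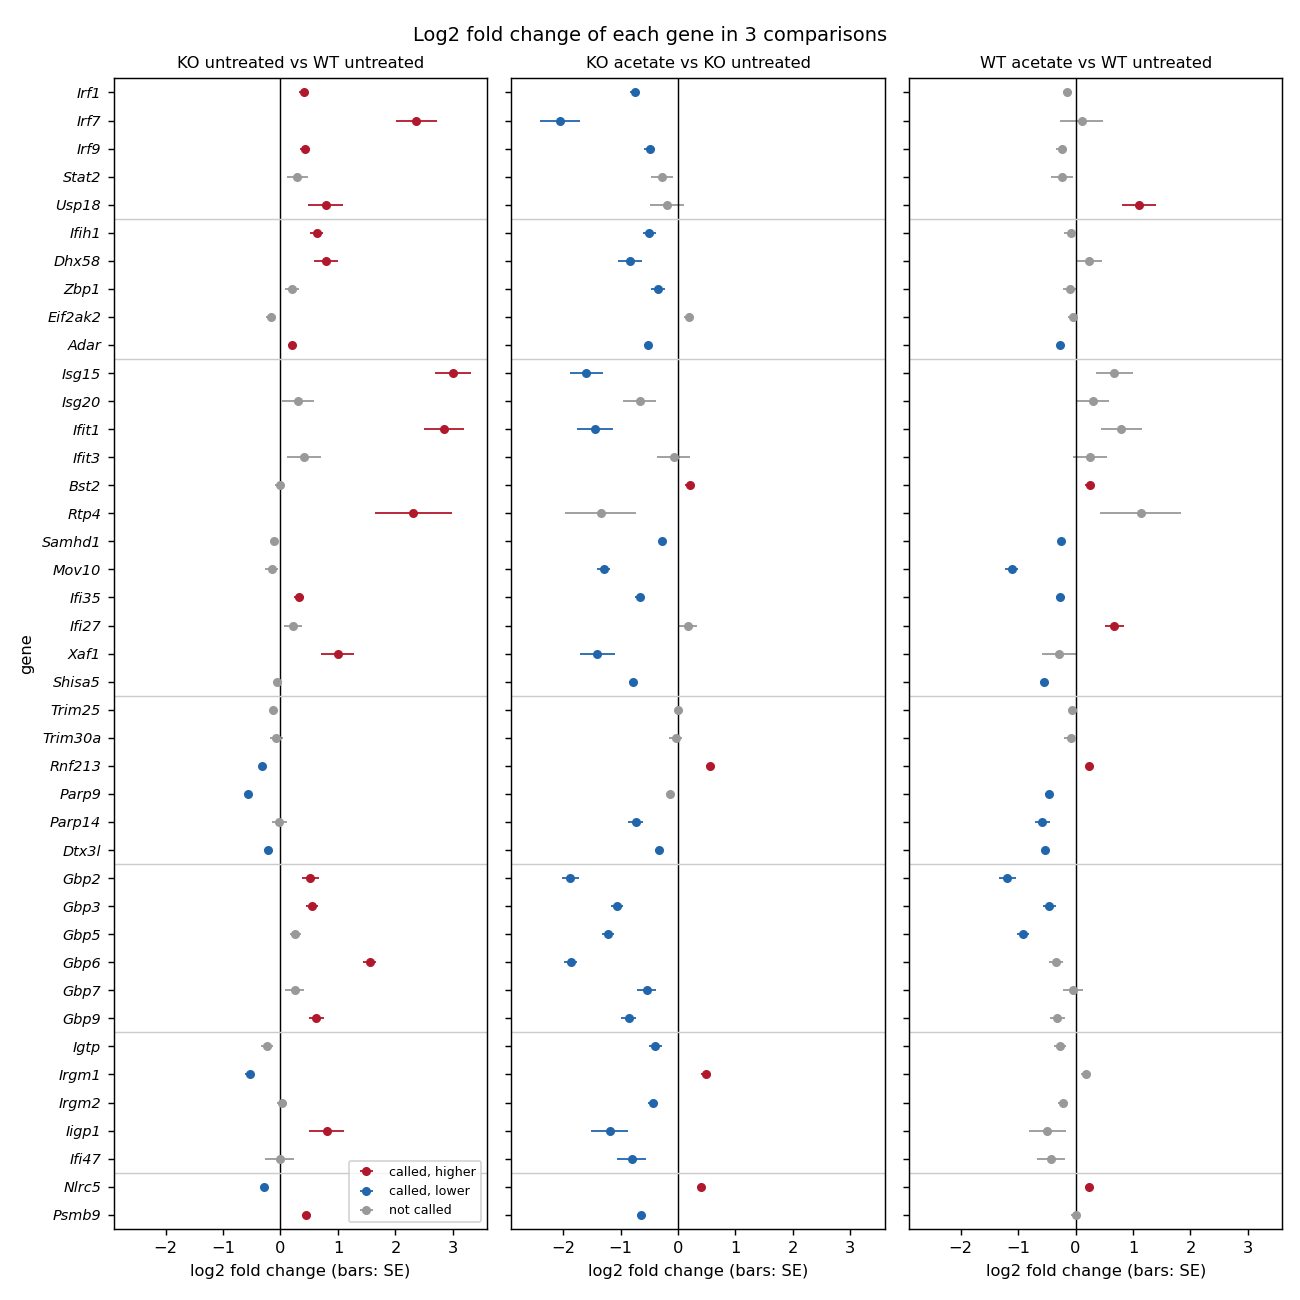
Log2 fold change with its SE (x axis) for each of the 41 genes (y axis, by role list), for KO untreated against WT untreated, KO acetate against KO untreated and WT acetate against WT untreated, with red and blue points for genes called higher and lower and grey points for genes not called. Isg15 stands highest on the left at 3.00, and 27 genes are blue in the middle panel against 11 on the right.

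None of the ubiquitin and ADP-ribose enzymes rose in KO untreated against WT untreated cells. Parp9, which forms a complex with the ubiquitin ligase Dtx3l, had 35.2, 36.3, 36.2 and 32.4 CPM in KO acetate, 40.0, 35.2, 41.6 and 38.1 CPM in KO untreated, 37.8, 43.2, 43.5 and 40.6 CPM in WT acetate and 59.4, 54.5, 54.3 and 60.1 CPM in WT untreated libraries. The WT untreated libraries were above all others. Parp9 fell in KO untreated against WT untreated cells (log2 fold change −0.56, SE 0.067, adjusted p = 5.58e-06) and with acetate in WT cells (log2 fold change −0.47, SE 0.067, adjusted p = 0.000138). Dtx3l had 40.8, 39.7, 42.8 and 34.3 CPM in KO acetate, 51.8, 46.5, 50.2 and 50.2 CPM in KO untreated, 38.6, 39.7, 40.9 and 41.3 CPM in WT acetate and 61.8, 57.9, 56.9 and 55.7 CPM in WT untreated libraries. WT untreated was again the highest group, KO untreated came next without overlap, and the acetate groups of both genotypes overlapped each other. Dtx3l fell in KO untreated against WT untreated cells (log2 fold change −0.23, SE 0.064, adjusted p = 0.0106), with acetate in KO cells (log2 fold change −0.34, SE 0.065, adjusted p = 0.000378) and with acetate in WT cells (log2 fold change −0.53, SE 0.065, adjusted p = 2.92e-05). The first of these calls was lost without the high-share libraries (log2 fold change −0.18, adjusted p = 0.137).

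Parp14, a mono-ADP-ribosyltransferase, lies next to Dtx3l and Parp9 in the RefSeq gene order. It fell with acetate in KO cells (log2 fold change −0.74, SE 0.131, adjusted p = 0.000208) and in WT cells (log2 fold change −0.57, SE 0.13, adjusted p = 0.00637), and its log2 fold change between KO untreated and WT untreated cells was −0.02 (adjusted p = 0.931). Rnf213, a giant ubiquitin ligase that marks intracellular bacteria, averaged 55.2 ± 2.99 CPM in KO acetate, 37.6 ± 2.11 CPM in KO untreated cells, 55.2 ± 3.04 CPM in WT acetate and 46.7 ± 2.54 CPM in WT untreated cells. It fell in KO untreated against WT untreated cells (log2 fold change −0.32, SE 0.063, adjusted p = 0.000756) and rose with acetate in KO cells (log2 fold change 0.55, SE 0.063, adjusted p = 1.29e-06) and in WT cells (log2 fold change 0.24, SE 0.062, adjusted p = 0.0139), the WT call being lost without WT acetate 1 or WT untreated 1 (0.0554 and 0.051) or without the high-share libraries (0.0676). Trim25, a ubiquitin ligase of the RIG-I pathway, had 70.8, 69.8, 67 and 58.4 CPM in KO acetate, 62.3, 70.7, 68.5 and 63.6 CPM in KO untreated, 70.6, 70.7, 69.2 and 69 CPM in WT acetate and 70.4, 74, 74.2 and 71.5 CPM in WT untreated libraries. Its groups overlapped, and neither Trim25 nor Trim30a was called in any comparison. Of the 6 enzymes none rose and 3 fell in KO untreated against WT untreated cells. With acetate 2 fell and 1 rose in KO cells, and 3 fell and 1 rose in WT cells.

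The guanylate-binding proteins are large GTPases that gather on pathogen vacuoles and break them open. Gbp2 had 71.7, 81.6, 97.7 and 95.7 CPM in KO acetate, 349, 232, 340 and 349 CPM in KO untreated, 75.8, 89.6, 120 and 103 CPM in WT acetate and 240, 222, 216 and 208 CPM in WT untreated libraries. The acetate libraries of both genotypes lay below the untreated ones, and KO untreated 2 lay among the WT untreated libraries. Gbp2 rose in KO untreated against WT untreated cells (log2 fold change 0.52, SE 0.147, adjusted p = 0.0122) and fell with acetate in KO cells (log2 fold change −1.87, SE 0.152, adjusted p = 1.64e-07) and in WT cells (log2 fold change −1.19, SE 0.149, adjusted p = 0.000108). Gbp5 had 35.2, 44.1, 42.3 and 35.5 CPM in KO acetate, 95.2, 72.8, 101 and 94.8 CPM in KO untreated, 33.2, 42.4, 45.1 and 40.8 CPM in WT acetate and 77.3, 79.5, 71.9 and 74.9 CPM in WT untreated libraries. The 2 acetate groups overlapped each other and lay below all untreated libraries. Gbp5 fell with acetate in KO cells (log2 fold change −1.21, SE 0.106, adjusted p = 7.76e-08) and in WT cells (log2 fold change −0.91, SE 0.105, adjusted p = 1.93e-05). Its difference between KO untreated and WT untreated cells was not called (log2 fold change 0.26, SE 0.103, adjusted p = 0.0561), but was without KO untreated 2 (log2 fold change 0.36, adjusted p = 0.00735).

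Gbp6 had 9.30, 9.08, 10.5 and 8.27 CPM in KO acetate, 31.7, 34.4, 38.7 and 31 CPM in KO untreated, 8.94, 8.54, 10.6 and 8.44 CPM in WT acetate and 12, 8.91, 12.5 and 12.9 CPM in WT untreated libraries. The KO untreated libraries stood apart from the other 12, whose groups overlapped. Gbp6 rose in KO untreated against WT untreated cells (log2 fold change 1.55, SE 0.115, adjusted p = 3.87e-08) and fell with acetate in KO cells (log2 fold change −1.87, SE 0.117, adjusted p = 1.52e-09). With acetate in WT cells the log2 fold change was −0.34 (adjusted p = 0.054), and it passed by DESeq2 (0.0379) and without WT acetate 3 or WT untreated 2 (0.025 and 0.0105). Gbp3 and Gbp9 rose in KO untreated against WT untreated cells (log2 fold changes 0.54 and 0.63) and fell with acetate in KO cells (−1.06 and −0.86), and Gbp3 fell with it in WT cells (−0.45). Gbp9 was called lower with acetate in WT cells without WT acetate 3 or WT untreated 2 (adjusted p of 0.0236 and 0.0452). Gbp7 fell with acetate in KO cells (log2 fold change −0.54, SE 0.168, adjusted p = 0.0135), a call lost without KO untreated 1 (0.0507) or with only these 2 groups fitted (0.0505). Its difference between KO untreated and WT untreated cells (0.25, adjusted p = 0.259) was called without KO untreated 2 (log2 fold change 0.44, adjusted p = 0.00538). Of the 6 genes 4 rose and none fell in KO untreated against WT untreated cells. With acetate 6 fell in KO cells and 3 in WT cells, and none rose. The 6 genes also fell with acetate in KO cells when library totals alone set the scale and when the high-share libraries were left out.

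The immunity-related GTPases, which the same interferon-γ response induces, were split. Irgm1, a regulator of the effector GTPases, had 22.5, 22.3, 22.8 and 26.8 CPM in KO acetate, 17, 15, 17.8 and 17.5 CPM in KO untreated, 26, 24.6, 29.6 and 30.7 CPM in WT acetate and 25.2, 22.7, 24.8 and 25.1 CPM in WT untreated libraries. The KO untreated libraries were below all others. Irgm1 fell in KO untreated against WT untreated cells (log2 fold change −0.54, SE 0.086, adjusted p = 9.52e-05) and rose with acetate in KO cells (log2 fold change 0.49, SE 0.086, adjusted p = 0.000152). Igtp, a second regulatory member, had 88.5, 105, 100 and 114 CPM in KO acetate, 146, 109, 136 and 146 CPM in KO untreated, 120, 116, 158 and 130 CPM in WT acetate and 177, 146, 155 and 155 CPM in WT untreated libraries. The groups overlapped, except that KO acetate lay below both WT groups. Igtp fell with acetate in KO cells (log2 fold change −0.40, SE 0.108, adjusted p = 0.00659), and its log2 fold change between KO untreated and WT untreated cells was −0.24 (adjusted p = 0.0922), which passed with library totals alone as the scale (0.0194).

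Irgm2, the neighbour of Igtp, fell with acetate in KO cells (log2 fold change −0.43, SE 0.089, adjusted p = 0.000632), as did the effector Iigp1 (log2 fold change −1.19, SE 0.316, adjusted p = 0.00497) and Ifi47 (log2 fold change −0.80, SE 0.253, adjusted p = 0.0204). The Ifi47 call was lost without KO acetate 1 or 2 or KO untreated 1 or 4 (adjusted p of 0.0529 to 0.0607) and without the high-share libraries (0.0573). Iigp1 rose in KO untreated against WT untreated cells (log2 fold change 0.80, SE 0.309, adjusted p = 0.0498), a call lost without KO untreated 1, 3 or 4 or WT untreated 2, 3 or 4 (0.0703 to 0.165) and under 5 other settings of scaling, filter and groups fitted (0.05 to 0.0611). KO untreated 2 had the lowest KO untreated level for all 5 immunity-related GTPases and for 4 of the 6 guanylate-binding proteins. It was lowest also for 3 of 6 ubiquitin and ADP-ribose enzymes and 1 of 2 class I genes. For the other lists it was lowest for 1 of 5 regulators, 1 of 5 nucleic acid sensors and 1 of 12 antiviral effectors. KO untreated 2 is 1 of the high-share libraries, and the part of that in its low GTPase levels was not tested. Of the 5 immunity-related GTPases 1 rose (20%) and 1 fell (20%) in KO untreated against WT untreated cells, where 18% and 18.6% of all genes did. With acetate 4 fell and 1 rose in KO cells, and none was called in WT cells, where Igtp passed without WT acetate 3 (adjusted p = 0.0155).

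In class I antigen processing, Psmb9, an inducible catalytic subunit of the immunoproteasome, had 32.4, 43.6, 40.0 and 42.8 CPM in KO acetate, 58.9, 67.5, 61.9 and 59.4 CPM in KO untreated, 45.7, 46.2, 45.7 and 44.9 CPM in WT acetate and 44.8, 45, 43.6 and 48.4 CPM in WT untreated libraries. The KO untreated libraries were above all others, and KO acetate was below WT acetate. Psmb9 rose in KO untreated against WT untreated cells (log2 fold change 0.45, SE 0.076, adjusted p = 0.000192) and fell with acetate in KO cells (log2 fold change −0.64, SE 0.077, adjusted p = 2.39e-06). Nlrc5, the transactivator of class I genes, had 70.8, 64.6, 73.1 and 75 CPM in KO acetate, 56.5, 51.9, 52.5 and 53.4 CPM in KO untreated, 71.2, 71.1, 85.8 and 77.9 CPM in WT acetate and 67.3, 67.1, 64.5 and 61.3 CPM in WT untreated libraries. Its KO untreated libraries were below all others. Nlrc5 fell in KO untreated against WT untreated cells (log2 fold change −0.28, SE 0.067, adjusted p = 0.00303) and rose with acetate in KO cells (log2 fold change 0.40, SE 0.067, adjusted p = 8.1e-05) and in WT cells (log2 fold change 0.23, SE 0.066, adjusted p = 0.0232), the WT call being lost without WT acetate 3 or 4 or WT untreated 3 or 4 (0.057 to 0.0783).

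**Figure D3:**
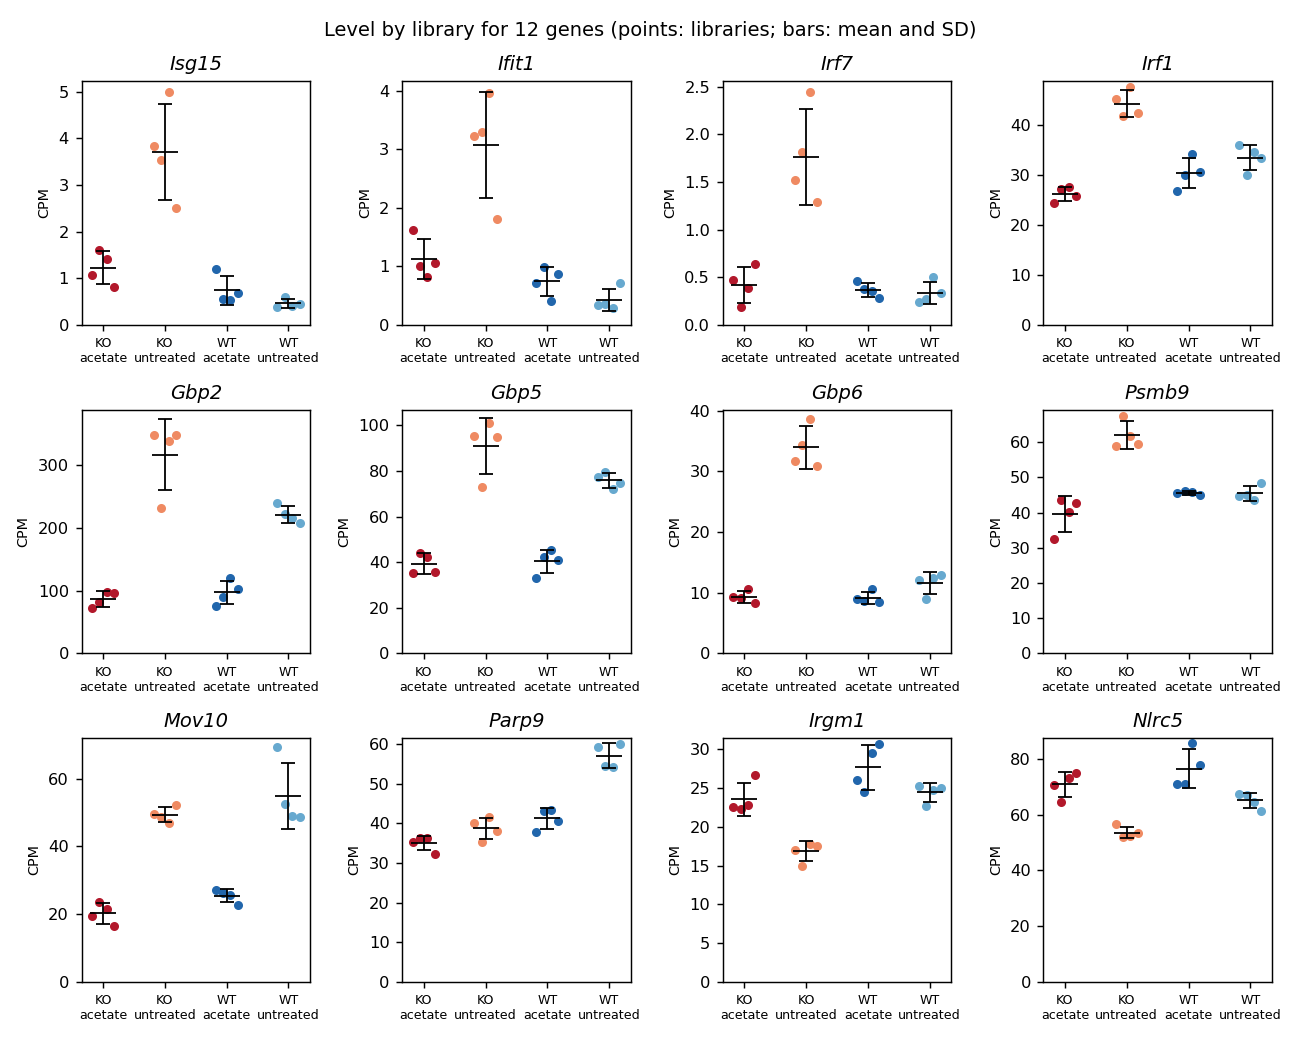
CPM (y axis, from 0) in each library for 12 genes, by group (x axis), with a point per library and bars for the mean and SD of 4 libraries. Isg15, Ifit1, Irf7, Gbp6 and Psmb9 stand highest in KO untreated libraries, Mov10 is low in both acetate groups, and Irgm1 and Nlrc5 are lowest in KO untreated libraries.

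The effect of acetate in KO cells was then set against its effect in WT cells by testing their difference. This test uses the libraries of the comparisons above, so it is not independent of them. The difference also equals the log2 change between KO and WT cells with acetate minus that without acetate. It was called for 13 of the 41 genes (31.7%), 11 with a lower and 2 with a higher log2 change in KO than in WT cells. Of the genes tested 11.9% passed (5.54% downward and 6.37% upward). Lower describes the signed change, so it is a larger fall where both genotypes fell, as for Gbp2 (−1.87 in KO and −1.19 in WT cells). The clearest were Gbp6 (log2 difference −1.52, SE 0.164, adjusted p = 1.7e-05), Psmb9 (log2 difference −0.65, SE 0.108, adjusted p = 0.000973), Irf1 (log2 difference −0.61, SE 0.11, adjusted p = 0.00165) and Isg15 (log2 difference −2.27, SE 0.433, adjusted p = 0.0026). Ifit1 (−2.24), Irf7 (−2.16), Gbp3 (−0.61), Dhx58 (−1.07), Ifi35 (−0.40), Gbp2 (−0.68) and Usp18 (−1.30) also had a lower log2 change in KO cells. Rnf213 (0.32) and Parp9 (0.32) had a higher one, with Parp9 at −0.14 in KO and −0.47 in WT cells. For Mov10 (log2 difference −0.18, SE 0.157, adjusted p = 0.513) and Gbp5 (log2 difference −0.30, SE 0.148, adjusted p = 0.204) the difference was not called. Without the high-share libraries 6 members were called, all lower in KO cells, and with library totals alone as the scale 6 were lower and 2 higher. Irf7 (adjusted p = 0.061) and Ifit1 (0.0616) were among those lost without the high-share libraries, with differences of −1.87 and −2.01 on the log2 scale, as were Rnf213 (0.36, adjusted p = 0.0571) and Parp9 (0.24, adjusted p = 0.204). Usp18, Dhx58, Ifi35 and Gbp2 were lost under both of these settings (0.0505 to 0.157), and Gbp3 with library totals alone (0.0548). With the high-share libraries left out, when 2 KO untreated libraries remain, the differences of Dhx58 (−1.07), Ifi35 (−0.39), Gbp2 (−0.81) and Usp18 (−1.08) kept their direction. With 1 library left out 7 to 12 members were lower and 0 to 3 higher, the 7 being without WT untreated 2 or 3. Of the 16 fits that left out 1 library, Gbp2 kept its call in those without KO acetate 3, KO acetate 4, KO untreated 2 or WT acetate 1 and lost it in the other 12 (0.0552 to 0.0885). Usp18 kept it without KO acetate 1 or 2, KO untreated 4, WT acetate 3 or WT untreated 4 and lost it in 11 (0.0565 to 0.104). Parp9 kept it without KO acetate 4, KO untreated 1 or 3, WT acetate 2 or 3 or WT untreated 2 or 3 and lost it in 9 (0.052 to 0.0719). Ifi35 lost it without KO acetate 1 or 3, KO untreated 2, WT acetate 3 or WT untreated 2, 3 or 4 (0.0524 to 0.0653), and Rnf213 without KO acetate 2 or 3, KO untreated 3 or 4, WT acetate 2 or 4 or WT untreated 3 (0.0504 to 0.0648). Dhx58 lost it without KO untreated 3, WT acetate 1 or WT untreated 2 or 3 (0.0514 to 0.0596).

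**Figure D4:**
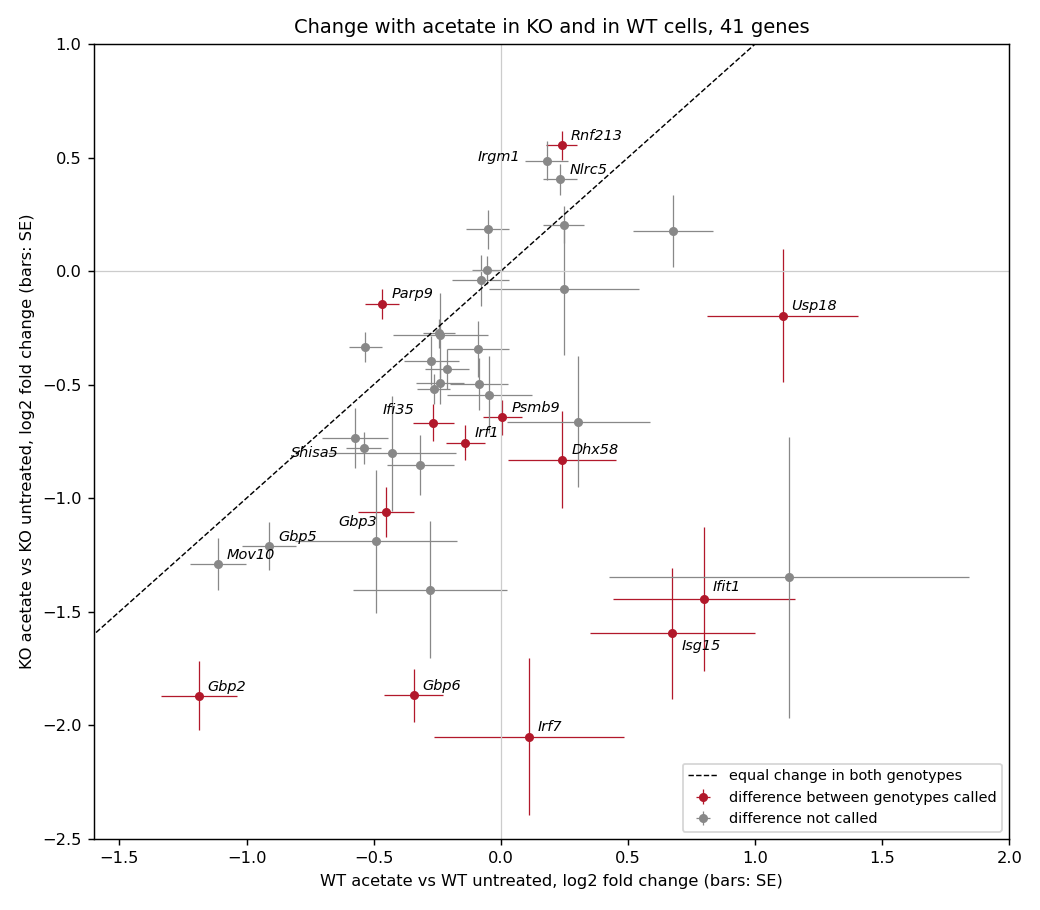
Log2 fold change with acetate in KO cells (y axis) against that in WT cells (x axis) for the 41 genes, with SE bars, a dashed line of equal change and red points where the difference between genotypes was called. Gbp6 lies at −1.87 in KO and −0.34 in WT cells, and Mov10 at −1.29 in KO and −1.11 in WT cells.

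The genes around the set were measured from companion lists of the same pathways. Of the 11 interferon-related ligand genes listed, Ifng and Ebi3 were tested, and the others were not analysed here. Ifng, whose protein the culture antibody blocks, averaged 4.54 ± 1.52 CPM in KO acetate, 2.00 ± 0.760 CPM in KO untreated cells, 3.04 ± 0.972 CPM in WT acetate and 0.656 ± 0.140 CPM in WT untreated cells. It rose in KO untreated against WT untreated cells (log2 fold change 1.60, SE 0.331, adjusted p = 0.001), with acetate in KO cells (log2 fold change 1.17, SE 0.3, adjusted p = 0.00373) and with acetate in WT cells (log2 fold change 2.20, SE 0.328, adjusted p = 0.000197). The level of Ifng in WT untreated cells was low, and its calls were not followed under other settings. Ebi3, a subunit shared by IL-27 and IL-35, rose with acetate in KO cells (log2 fold change 0.73) and in WT cells (0.93). In KO untreated against WT untreated cells, where Ifng transcripts rose, 4 of the 6 guanylate-binding protein genes rose and none fell. With acetate, where Ifng transcripts also rose, all 6 fell in KO cells and 3 in WT cells. Whether these changes are related was not tested. Th1 markers, Ifng included, summed to 275 to 385 CPM in KO acetate, 91.5 to 141 CPM in KO untreated libraries, 267 to 418 CPM in WT acetate and 195 to 307 CPM in WT untreated libraries. Of these 5 markers only Ifng rose and 3 fell in KO untreated against WT untreated cells. With acetate all 5 rose in KO cells and 2 in WT cells. Over all genes tested 18% rose and 18.6% fell in KO untreated against WT untreated cells. With acetate 22.1% of all genes rose and 21.6% fell in KO cells, and 7.89% rose and 7.55% fell in WT cells. The part of Th1 cells in the results was not tested.

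Among the interferon receptor genes, compared between KO untreated and WT untreated cells, Ifnar1 (−0.23), Ifnar2 (−0.29), Ifngr1 (−0.30) and Ifngr2 (−0.24) fell on the log2 scale. Of the 9 receptor and kinase genes 6 fell and 1 rose, the kinase gene Jak2 (log2 fold change 0.35, SE 0.074, adjusted p = 0.00132). With acetate in KO cells 1 of the 9 fell, Jak2 (log2 fold change −0.42, SE 0.074, adjusted p = 0.000133), and 2 rose. Among the 6 other interferon factors tested, 2 rose and 2 fell in KO untreated against WT untreated cells, and 2 fell with acetate in KO cells and 2 rose. For both lists, 18% of all genes tested rose and 18.6% fell in KO untreated against WT untreated cells. With acetate in KO cells 22.1% of all genes rose and 21.6% fell. Mlkl, the effector of necroptosis, fell in KO untreated against WT untreated cells (log2 fold change −1.03) and rose with acetate in KO cells (1.26).

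Of the 10 genes tested upstream in nucleic acid sensing, 1 rose (10%) and 3 fell (30%) in KO untreated against WT untreated cells. Over all genes tested 18% rose and 18.6% fell there. With acetate in KO cells 5 of the 10 fell (50%) and 1 rose (10%), where 21.6% and 22.1% of all genes did. The kinase gene Ikbke rose in KO untreated cells (0.74) and fell with acetate in KO cells (−0.94), and Sting1, the adaptor for cytosolic DNA, fell with acetate in KO cells (−0.73). Of 6 negative regulators 1 rose and 2 fell in KO untreated against WT untreated cells, led by Irf2bp2 (0.69) and Ptpn6 (−0.40). With acetate 2 of the 6 fell and 2 rose in KO cells. Of 9 genes of the MHC class I pathway none rose and 3 fell (33.3%) in KO untreated against WT untreated cells. With acetate in KO cells 4 of the 9 fell (44.4%) and 1 rose (11.1%). Tapbp, the chaperone that loads peptides, was among those that fell (−1.20). Psmb8, another inducible immunoproteasome subunit, which lies near Psmb9 with only Tap1 between them in the RefSeq gene order, fell in KO untreated against WT untreated cells (log2 fold change −0.47, SE 0.058, adjusted p = 7.07e-06) and rose with acetate in KO cells (log2 fold change 0.40, SE 0.058, adjusted p = 1.78e-05), the reverse of Psmb9.

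A wider list of 65 other interferon-induced genes, 55 of them tested, showed how far the pattern of the set extended. In KO untreated against WT untreated cells 14 rose (25.5%) and 10 fell (18.2%), where 18% and 18.6% of all genes did. Gbp8 (1.42), Parp11 (0.54) and the antiviral synthetase gene Oas1a (2.39) rose, and Lgals3bp (−0.56) fell, on the log2 scale. With acetate in KO cells 18 fell (32.7%) and 13 rose (23.6%), where 21.6% and 22.1% of all genes did. With acetate in WT cells 10 fell (18.2%) and 5 rose (9.09%), where 7.55% and 7.89% of all genes did. In KO cells Gbp8 (−1.63), Parp11 (−0.80) and Uba7, which activates ISG15 for conjugation (−1.58), fell, while Slfn5 (1.63) rose. Genes of this wider list thus went both ways in each of the 3 comparisons.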

How the data were processed

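The authors deposited a table of estimated counts per gene for 16 RNA-seq libraries (stranded mRNA, per the labels' protocols). Salmon, DESeq2 and DESeq are named in the submitters' processing notes, without versions, and no genome build or annotation is given in the sources used here. Every gene had at least 10 counts in at least 3 libraries. Library totals were 24.57 to 33.72 M.

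The estimated counts were rounded and fitted in 1 model of all 16 libraries (R 4.3.3, edgeR 4.0.16, limma 3.58.1). Genes passing filterByExpr (14985 of 15571) were scaled by TMM and tested by edgeR's quasi-likelihood F test (robust). Benjamini-Hochberg adjustment ran over all 14985 genes, with a threshold of 0.05. The steps were tested on simulated data. Fold changes put the KO or acetate group on top. Of the gene names 15221 matched RefSeq and 350 did not. CPM values carry the SD of 4 libraries.

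The members, the lists and the tests were chosen with earlier results of these data known. Values in every library are given, in each role list, for the 2 genes with the smallest p for any difference among the 4 groups and for the gene with the highest mean. Isg15 and Ifit1 were added after their values were seen. Companion genes named are Ifng, the interferon receptors and, per list and comparison, up to 4 called genes with the smallest adjusted p. One companion gene is not reported here. Alternatives were DESeq2 1.42.0 size factors or its Wald test, no scaling, no filter, a replicate block, only the groups compared, the unnamed gene left out, the 4 high-share libraries left out, and each library left out in turn.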

Additional observations from a re-analysis of the deposited data

Results flagged for a closer look

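Levels were checked for a single library far from its group in 164 groups of 4 values, with Dixon's ratio (critical value 0.829), and 11 were found. Chance gives about 1 in 20 groups. Among the high values, Ifit1 was at 0.710 CPM in WT untreated 4, against 0.294 to 0.364 CPM in the other WT untreated libraries, and Rtp4 at 0.172 CPM in WT untreated 1, against 0.0882 to 0.101 CPM. Bst2 was at 62.7 CPM in WT acetate 2, against 48.8 to 51.2 CPM in the other WT acetate libraries, Gbp3 at 10.2 CPM there, against 8.61 to 8.82 CPM, and Xaf1 at 1.35 CPM in WT acetate 4, against 0.737 to 0.813 CPM. Irgm1 was at 26.8 CPM in KO acetate 4, against 22.3 to 22.8 CPM, and Irgm2 at 22.3 CPM in KO untreated 3, against 17.2 to 18 CPM. Among the low values, Gbp2 was at 232 CPM in KO untreated 2, against 340 to 349 CPM in the other KO untreated libraries. Isg20 was at 0.636 CPM in WT untreated 2, against 1.29 to 1.41 CPM, and Irgm1 at 22.7 CPM there, against 24.8 to 25.2 CPM. Ifi35 was at 22.3 CPM in WT acetate 4, against 25.1 to 25.6 CPM.

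The effect of acetate differed between KO and WT cells, by the test of that difference, for 13 genes. The differences, KO minus WT on the log2 scale, were −2.27 for Isg15, −2.24 for Ifit1, −2.16 for Irf7, −1.525 for Gbp6, −1.30 for Usp18, −1.07 for Dhx58, −0.68 for Gbp2, −0.65 for Psmb9, −0.61 for Irf1, −0.61 for Gbp3 and −0.40 for Ifi35. They were 0.32 for Parp9 and 0.315 for Rnf213.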

How the results depend on the processing

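Calls of single members made 101 pairs of gene and comparison, with 1706 values under the alternatives, of which 1553 kept the call, 153 lost it and none changed direction. In all, 69 pairs kept the call under every alternative. For KO acetate against WT acetate cells, where edgeR called 0 members, the replicate block called 1, leaving out the high-share libraries 2 and DESeq2 3, and leaving out 1 library gave 0 to 3. For the difference between the acetate effects the 13 members called became 8 without scaling, 6 without the high-share libraries and 8 to 13 with 1 library left out, the 8 being without WT untreated 3, and a fit of only the groups compared does not apply there. The cause was not tested. The other 4 counts of members, both directions together, stayed within 1.5 times. Over all genes, 150 were called between KO acetate and WT acetate cells, against 826 by DESeq2, 408 with the replicate block, 535 without the high-share libraries, 78 without scaling, 16 in a fit of these groups only and 21 to 661 with 1 library left out. Without the high-share libraries 3361 genes, in place of 5481, were called between KO untreated and WT untreated cells, and 1010, in place of 1785, for the difference between acetate effects. Without scaling the calls over all genes split into 1914 higher and 3217 lower between KO untreated and WT untreated cells (2699 and 2782 with TMM), 4229 and 2085 with acetate in KO cells (3314 and 3236), 1196 and 558 with acetate in WT cells (1183 and 1132), 28 and 50 between KO acetate and WT acetate cells (73 and 77), 1911 and 1254 between KO acetate and WT untreated cells (1935 and 2019), and 939 and 442 for the difference (955 and 830). Same-numbered libraries correlated at −0.084 to 0.229 in their deviations from group means over 24 pairs (median 0.0485, 9 above 0.1), against −0.195 to 0.198 over 72 pairs of other numbers (median −0.0135, 8 above 0.1), and 9 of 16 libraries correlated best with their own number. The labels name nothing shared by a number and not every pair was above 0.1, so the numbers were not taken as pairs; the correlations are a hint from the data that some same-numbered libraries vary together. With the replicate block 23 members were called in KO untreated against WT untreated cells, 31 with acetate in KO cells, 17 with acetate in WT cells, 20 in KO acetate against WT untreated cells and 15 for the difference. The block added calls of Gbp6 with acetate in WT cells (adjusted p = 0.0236) and in KO acetate against WT untreated cells (0.0247), Psmb9 in the last comparison (0.0415), Shisa5 in KO acetate against WT acetate cells (0.0354), and Gbp9 (0.0392) and Irgm1 (0.0358) for the difference, and no call was lost under it. Low counts limit Rtp4, Irf7, Isg15 and Ifit1, and also Ifit3, Isg20, Xaf1, Iigp1 and Usp18.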

Other observations

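The guanylate-binding protein genes lie in 2 clusters in the RefSeq gene order, and a comparison of the clusters was made after their values were seen. In the cluster of Gbp2, Gbp3, Gbp5 and Gbp7 the log2 fold change of KO untreated against WT untreated cells was 0.25 to 0.54 (median 0.39), and 2 of 4 rose. In the other, where Gbp4, Gbp6, Gbp8, Gbp9 and Gbp10 are joined by the transcribed pseudogene Gbp11, it was 0.63 to 2.19 (median 1.49), and 6 of 6 rose. With acetate in WT cells 3 of the 4 genes of the first cluster fell, and 1 of the 6 of the second. With acetate in KO cells all 4 and all 6 fell, with medians of −1.14 and −1.75. Over all genes tested 18% rose in KO untreated against WT untreated cells, and with acetate 21.6% fell in KO cells and 7.55% in WT cells. No test of the difference between clusters was run, and reads shared between these similar genes may have been divided among them.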
